A study of Mus musculus with 12 samples.

Results

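A set of 10 genes of the mammalian circadian clock was followed through 12 hippocampal RNA-seq libraries, namely Per1, Per2, Per3, Cry2, Arntl, Nr1d1, Nr1d2, Dbp, Tef and Ciart. They are the rows of the count table whose Ensembl identifiers carry these symbols, 10 of 55385 genes. The study compared 4 genotypes of adult mice with 3 libraries each. Kcnip3 KO-5xFAD mice lack Kcnip3 and carry the 5xFAD transgenes, 5xFAD mice carry the transgenes with Kcnip3 intact, Kcnip3 KO mice (Kcnip3 -/-) lack Kcnip3 alone, and WT mice carry neither change. Kcnip3 encodes KChIP3, a calcium-binding protein also called DREAM or calsenilin. The 5xFAD line is a transgenic model of amyloid deposition whose transgenes are driven by Thy1 regulatory sequences. RNA came from the hemisphere opposite to that taken for proteomics, and libraries were made from messenger RNA. The labels call the libraries triplicates and do not say that each is a separate mouse, so the p-values below measure the spread between these libraries, part of which may be technical. The labels give no hour of dissection.

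The clock is a feedback loop of transcription that runs with a period of about a day in nearly every cell. BMAL1, the product of Arntl, pairs with CLOCK and activates the Per, Cry, Nr1d1, Nr1d2, Dbp, Tef and Ciart genes through E-box sequences, and PER and CRY proteins return to the nucleus to block that activation. REV-ERB proteins, made from Nr1d1 and Nr1d2, repress Arntl, while DBP and TEF activate target genes through D-box sequences. The hippocampus follows the master clock of the suprachiasmatic nucleus, and Per1 there can also be induced by neuronal activity and by glucocorticoid hormone.

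Promoter windows of 300 bases, reaching from 250 bases before the annotated start to 50 after it, are shown for 6 members because the results below turn on them. RefSeq sequence on GRCm38.p6 gave 12 windows for 9 members, all but Per2. Windows run 5′ to 3′ on the strand of the gene, and capitals mark matches to clock motifs. Ciart, Per1 and Dbp are given because they were grouped below by their correlations between libraries. Tef and Nr1d2 belong to another group there, and Arntl is given because its window 2 holds a REV-ERB/ROR-type match. The Ciart window is chr3:95882179-95882478 on the minus strand, the Per1 window 1 is chr11:69098699-69098998 on the plus strand, and the Dbp window is chr7:45704997-45705296 on the plus strand. The Tef window 2 is chr15:81811164-81811463 on the plus strand, the Nr1d2 window is chr14:18239057-18239356 on the minus strand, and the Arntl window 2 is chr7:113207261-113207560 on the plus strand.
Ciart: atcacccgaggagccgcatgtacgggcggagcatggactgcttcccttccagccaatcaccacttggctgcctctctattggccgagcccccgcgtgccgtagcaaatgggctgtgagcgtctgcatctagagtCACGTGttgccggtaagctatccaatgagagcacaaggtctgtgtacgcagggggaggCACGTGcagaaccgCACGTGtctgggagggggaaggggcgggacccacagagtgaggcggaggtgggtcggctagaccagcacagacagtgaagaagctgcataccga
Per1: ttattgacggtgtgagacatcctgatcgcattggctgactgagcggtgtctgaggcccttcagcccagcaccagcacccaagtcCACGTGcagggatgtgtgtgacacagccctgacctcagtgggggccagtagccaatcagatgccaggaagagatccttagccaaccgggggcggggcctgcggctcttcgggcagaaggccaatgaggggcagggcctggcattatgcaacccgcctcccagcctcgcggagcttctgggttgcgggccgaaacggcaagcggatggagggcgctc
Dbp: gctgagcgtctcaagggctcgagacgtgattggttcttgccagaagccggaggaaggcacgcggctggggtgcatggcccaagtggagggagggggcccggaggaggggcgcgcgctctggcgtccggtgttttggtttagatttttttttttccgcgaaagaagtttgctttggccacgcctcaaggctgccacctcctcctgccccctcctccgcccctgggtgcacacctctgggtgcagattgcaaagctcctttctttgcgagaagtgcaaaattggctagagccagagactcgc
Tef: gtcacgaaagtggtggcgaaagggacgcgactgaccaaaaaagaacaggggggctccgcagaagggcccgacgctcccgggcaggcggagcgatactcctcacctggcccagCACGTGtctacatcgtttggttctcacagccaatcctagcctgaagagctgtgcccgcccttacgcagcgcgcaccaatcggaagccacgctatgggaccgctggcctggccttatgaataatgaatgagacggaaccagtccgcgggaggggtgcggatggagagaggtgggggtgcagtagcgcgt
Nr1d2: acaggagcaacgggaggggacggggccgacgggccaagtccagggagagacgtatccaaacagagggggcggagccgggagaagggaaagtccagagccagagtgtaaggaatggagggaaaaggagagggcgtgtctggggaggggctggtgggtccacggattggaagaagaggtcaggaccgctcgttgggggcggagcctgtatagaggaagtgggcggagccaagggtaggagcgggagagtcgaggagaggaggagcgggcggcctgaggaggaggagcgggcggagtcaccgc
Arntl: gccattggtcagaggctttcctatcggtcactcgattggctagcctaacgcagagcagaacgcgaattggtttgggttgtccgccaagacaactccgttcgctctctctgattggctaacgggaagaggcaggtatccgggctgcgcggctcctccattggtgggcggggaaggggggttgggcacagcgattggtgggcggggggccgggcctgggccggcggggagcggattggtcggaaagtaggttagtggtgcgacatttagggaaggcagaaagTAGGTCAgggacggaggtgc

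Motifs of the clock and of cAMP signalling were searched on both strands of every window. The E-box CACGTG was present in 4 of the 12 windows, which belong to 3 members, against 7.15% of all 32851 promoter windows of the same length. Ciart held 3 copies, with their first bases at positions -116, -58 and -44 (the first base after the 250 counting as 1 and the base before it as -1), Per1 held 1 at -166, and Tef held 1 in each of its windows, at -127 and -138. The E-prime box CACGTT, present in 4.68% of all windows, occurred in Cry2 at -166 and in Nr1d1 at -28, both times as AACGTG, its reverse complement. Per3 held the D-box TTANGTAA at -205 and -158, a motif of 2.32% of all windows. Arntl window 2 held the REV-ERB/ROR half-site TAGGTCA at position 31, a motif of 2.61% of all windows, and no member held its other spelling, TGGGTCA, which 3.98% of windows have. None of the 12 windows held the cAMP response element TGACGTCA, present in 1.79% of all windows. The windows of Dbp and Nr1d2 held none of these letters, which says nothing of sites elsewhere in either gene. The map of motif positions sets the 12 windows side by side.

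**Figure D1:**
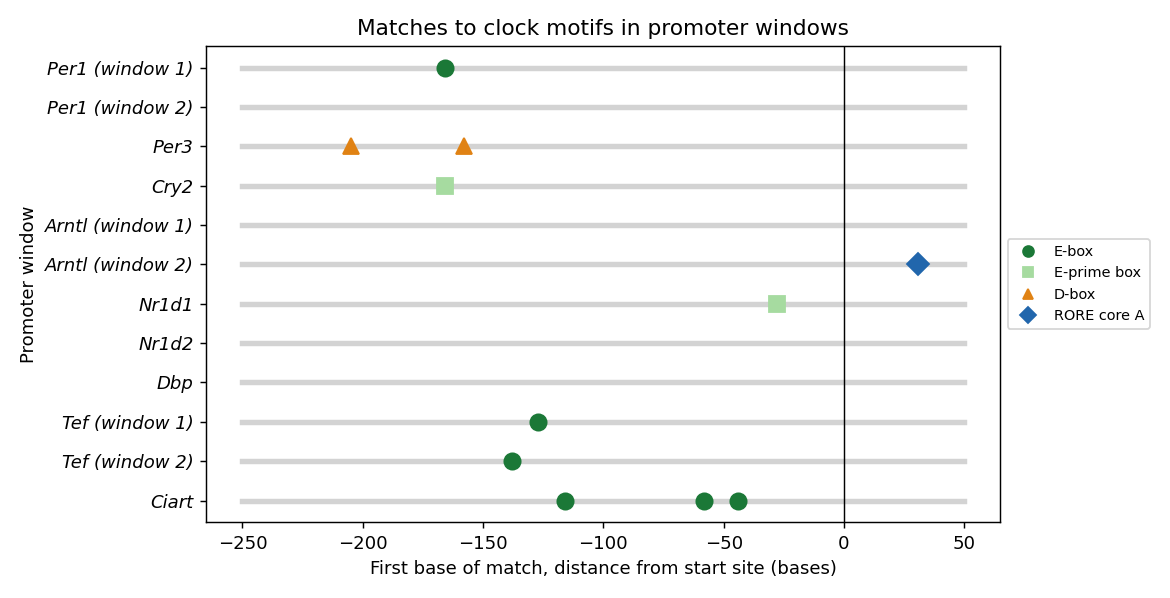
Positions of motif matches in the 12 promoter windows of 9 clock genes; each grey line is a window, the x axis is the distance of the first matched base from the annotated start in bases, and symbols mark the motif. The 3 E-boxes of Ciart lie between -116 and -44, and the windows of Dbp and Nr1d2 carry no symbol.

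Libraries held 7664407 to 11310714 counts, and all 10 clock genes were among the 15905 genes that passed the filter on low counts. Kcnip3 itself read 68.7 to 84.9 CPM (counts per 1e+06 counts of the library, after TMM scaling) in Kcnip3 KO-5xFAD libraries and 63.4, 71.4 and 125 CPM in Kcnip3 KO libraries, against 138 to 156 CPM in 5xFAD and 158 to 162 CPM in WT libraries. The library labelled Kcnip3 KO 3, at 125 CPM, lay nearer to the 5xFAD and WT libraries than to the other knockout libraries, so its Kcnip3 level went against its label. Thy1, whose sequences the transgenes carry, read 2590 to 4240 CPM in 5 of the 6 libraries labelled as transgenic and 747 to 887 CPM in 5 of the 6 labelled as non-transgenic. The library labelled Kcnip3 KO-5xFAD 2 had 926 CPM of Thy1 and 26.2 CPM of Trem2, a microglial gene. The library labelled WT 3 had 2280 CPM of Thy1 and 70.1 CPM of Trem2. Both thus went against their labels for the transgenes, and several results that rest on these libraries are also given without them. Neuronal and hippocampal neuron markers were present in every library with no marker at 0. Choroid plexus markers, which come from tissue next to the hippocampus, summed to between 99.1 and 8920 CPM over the libraries.

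Clock genes were expressed over a wide range. On the TPM scale, which corrects for transcript length, the mean over 12 libraries was 165 ± 22.7 for Tef, 132 ± 25.8 for Nr1d1, 104 ± 24.1 for Dbp, 87.2 ± 7.59 for Cry2 and 86.7 ± 18.5 for Per1 (SD). Ciart followed at 30.7 ± 8.11 TPM, Nr1d2 at 29.8 ± 8.28, Per2 at 22.6 ± 6.49, Per3 at 15.5 ± 3.06 and Arntl at 11.2 ± 1.92 (SD, n = 12). Dbp, Cry2 and Per1 did not differ from each other by more than the spread, nor did Ciart, Nr1d2 and Per2. Per1 at its lowest, 57 TPM, lay above Ciart at its highest, 46.3 TPM, so the order had a gap there. The activator gene Arntl thus had the lowest mean of the 10, though its range of 7.98 to 14.3 TPM overlapped the 9.28 to 19 TPM of Per3. Counting error was small beside these differences, since the lowest count behind any member was 110, for Ciart, and the coefficient of variation from counting reached 9.53% there.

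Of the 10 clock genes, 1 passed the test in any genotype comparison. Nr1d2 was lower in 5xFAD than in WT libraries, by a log2 fold change of -0.77 ± 0.19 (SE; edgeR quasi-likelihood test, adjusted p = 0.0489). In that comparison 1.62% of the genes tested were called lower. An unadjusted p under 0.05 was found for 2 of the 10 clock genes, Nr1d1 and Nr1d2, against 25.3% of all genes tested. All 10 clock genes had a log2 fold change below 0 in 5xFAD against WT, with a median of -0.24, against a median of 0.014 for all genes tested. Dbp alone among them turned to 0.04 in 1 alternative, without the library WT 2.

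In Kcnip3 KO against WT, edgeR called none of the 10 clock genes, where 0.0503% of all genes were called. Per1 and Nr1d1 had an unadjusted p under 0.05, against 4.51% of all genes, and the median of the 10 log2 fold changes was -0.13 against 0.002 for all genes. Kcnip3 KO-5xFAD against 5xFAD likewise gave no call, where 0.0692% of all genes were called. There 1 clock gene, Nr1d2, had an unadjusted p under 0.05, against 10.4% of all genes, and the median was 0.08 against -0.004. In Kcnip3 KO-5xFAD against Kcnip3 KO no gene at all was called (0%), and Per2 and Nr1d1 had an unadjusted p under 0.05, again against 10.4% of all genes, with a median of -0.03 for the members and -0.001 for all genes. The effect of Kcnip3 loss averaged over both backgrounds gave no clock gene called, where 0.088% of all genes were, and none with an unadjusted p under 0.05, where 8.47% had one. The interaction, which is the 5xFAD effect in mice without Kcnip3 minus that in mice with it, called no gene (0%), and Nr1d1 and Nr1d2 had an unadjusted p under 0.05, against 5.26% of all genes, with a median of 0.31 for the members and -0.014 for all genes. DESeq2 and limma-voom also called 0 of the 10 members in each of these 5 comparisons. With no filter on low counts, which raised the genes fitted to 31787, edgeR called Per1 (adjusted p = 0.00186) and Nr1d1 (0.0168) in Kcnip3 KO against WT, Nr1d2 (0.0484) in Kcnip3 KO-5xFAD against 5xFAD, Per2 (0.00849) in Kcnip3 KO-5xFAD against Kcnip3 KO and Nr1d1 (0.00969) in the interaction. Over all genes that fit called 1.02%, 1.1%, 2.27% and 0.856% of the genes in these 4 comparisons, which is 324, 351, 721 and 272 genes, against 8, 11, 0 and 0 with the filter. The SEs of the calls named were, in that order, 0.12, 0.12, 0.14, 0.14 and 0.17, against 0.20, 0.15, 0.20, 0.24 and 0.22 with the filter. The genotype comparisons share libraries with each other, and the interaction uses all 12. The plot of fold changes shows every member with its interval.

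**Figure D2:**
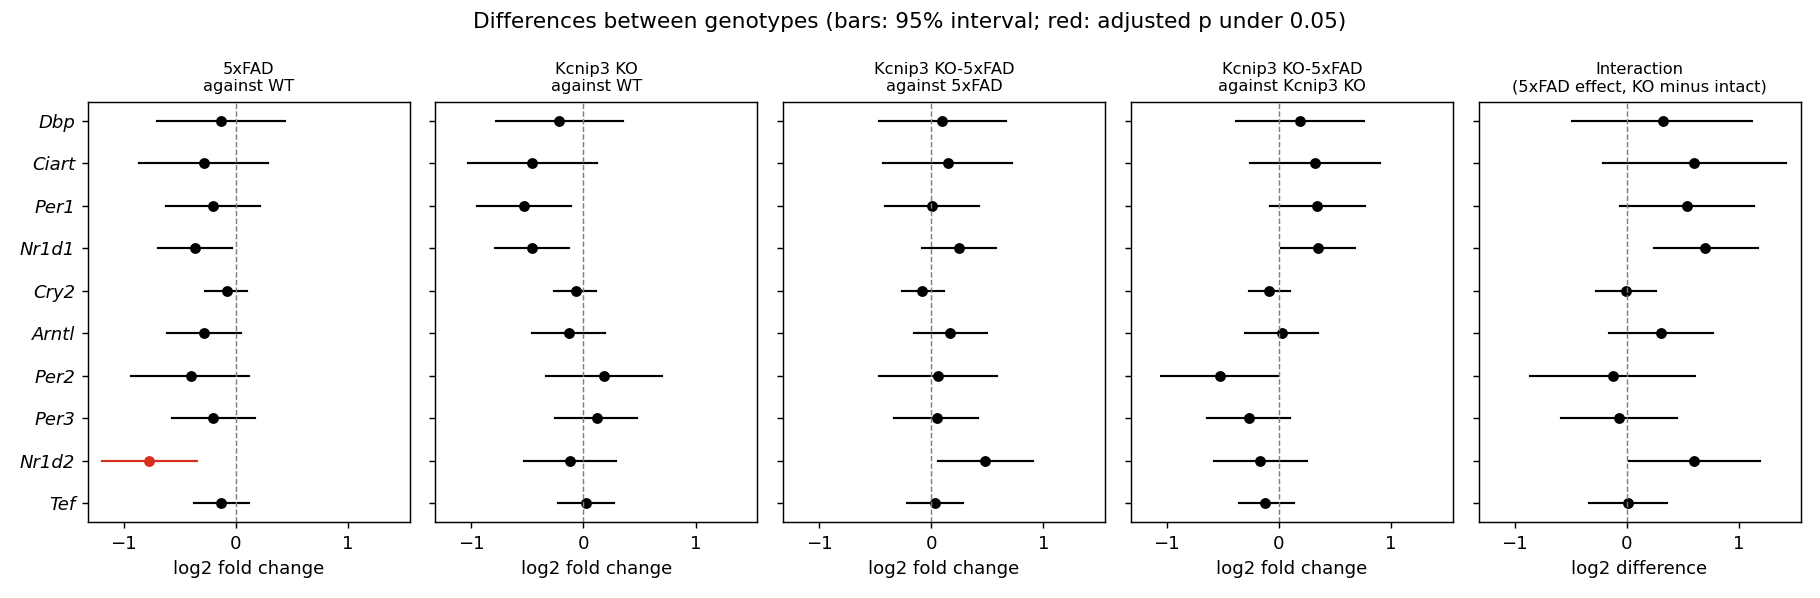
Log2 fold change (x axis) of each clock gene (rows) in 4 genotype comparisons and the interaction; points are edgeR estimates, bars their 95% intervals, and red marks an adjusted p under 0.05. The single red point is Nr1d2 at -0.77 in 5xFAD against WT.

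Among the negative regulators, Per1 encodes PERIOD1, the member that also responds quickly to stimuli. Its level was 176, 187 and 96.8 CPM in Kcnip3 KO-5xFAD libraries 1 to 3, 164, 149 and 144 CPM in 5xFAD, 129, 121 and 113 CPM in Kcnip3 KO, and 144, 194 and 185 CPM in WT. All 3 Kcnip3 KO libraries lay below all 3 WT libraries. The log2 fold change for Kcnip3 KO against WT was -0.53 ± 0.20 (SE), with an edgeR p of 0.0183 that became an adjusted p of 0.999 over all genes. It was -0.48 once the library labelled WT 3 and the one labelled Kcnip3 KO-5xFAD 2 were left out, and also -0.48 with only Kcnip3 KO 3 left out. The difference of Per1 in Kcnip3 KO-5xFAD against 5xFAD was 0.01, with a 95% interval from -0.41 to 0.43, and it was -0.16 without those 2 libraries.

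Activity-regulated genes had lower means in the same comparison, and the part of neuronal activity in the Per1 values was not tested. In Kcnip3 KO against WT all 12 listed genes of that kind had a log2 fold change below 0, with a median of -1.33. Of them 10 had an unadjusted p under 0.05 by edgeR, against 4.51% of all genes tested. edgeR and limma-voom called none of the 12 there and DESeq2 called 6. Over all 15905 genes, edgeR called 8 there, limma-voom 9 and DESeq2 29. Fos, an immediate early gene, read 13.6, 7.97 and 15.5 CPM in Kcnip3 KO libraries, against 49, 54.2 and 36.5 CPM in WT libraries. In 5xFAD against WT the median of the 12 was -1.06, and edgeR called 1 of them, Dusp1, a phosphatase gene, at -1.21 (adjusted p = 0.0358), while DESeq2 called 7 and limma-voom 4. Over all 15905 genes, edgeR called 562 in that comparison, DESeq2 1431 and limma-voom 568. Dusp1 had an adjusted p of 0.0518 without the 2 libraries that go against their labels for the transgenes, and 0.0581 to 0.149 without any 1 of WT 1, WT 2, WT 3, 5xFAD 2 or 5xFAD 3. Over all genes edgeR called 209 without those 2 libraries, and 1, 377, 13, 1 and 1 without these single ones in that order. Among 10 glucocorticoid-induced genes, 2 were called higher in 5xFAD than in WT, and edgeR, DESeq2 and limma-voom called none in the other comparisons. The 2 were the metallothionein genes Mt1 at 0.97 (edgeR, adjusted p = 0.0216) and Mt2 at 1.07 (adjusted p = 0.0233), and without any 1 of WT 1, WT 3, 5xFAD 2 or 5xFAD 3 neither was called (adjusted p from 0.0651 to 0.128). Over all genes 13 were called without WT 3, and 1 without WT 1, 5xFAD 2 or 5xFAD 3. Mt1 and Mt2 also respond to metals and inflammation.

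Per2 encodes PERIOD2, a core partner of the cryptochromes. Its level was 31.6, 41.9 and 29.7 CPM in Kcnip3 KO-5xFAD, 48.8, 24.1 and 26.4 CPM in 5xFAD, 48.3, 42.9 and 57.8 CPM in Kcnip3 KO, and 43.5, 36.9 and 50.8 CPM in WT libraries. The library 5xFAD 1 lay among the WT values, while 5xFAD 2 and 5xFAD 3 were the lowest of all 12. All 3 Kcnip3 KO-5xFAD libraries lay below all 3 Kcnip3 KO libraries. The log2 fold change of Per2 was -0.53 ± 0.24 (SE) in Kcnip3 KO-5xFAD against Kcnip3 KO (edgeR, unadjusted p = 0.0471, adjusted p = 0.473), and -0.41 without Kcnip3 KO 3 (adjusted p = 0.667). In 5xFAD against WT it was -0.40 ± 0.24 (SE, adjusted p = 0.313). Without WT 3 and Kcnip3 KO-5xFAD 2 it was -0.28 there (edgeR, adjusted p = 0.624). Kcnip3 KO-5xFAD against Kcnip3 KO then gave -0.70 (edgeR, adjusted p = 0.456).

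Per3, the third period gene and one that mice can lose with little effect on rhythm, had its widest spread in 5xFAD, as Per2 did. It read 46.5, 43 and 37.9 CPM in Kcnip3 KO-5xFAD, 55.6, 31.5 and 36.3 CPM in 5xFAD, 50.4, 48.8 and 54.1 CPM in Kcnip3 KO, and 53.6, 46.5 and 41.3 CPM in WT libraries. The 5xFAD group held both its highest and its lowest library of the 12. No comparison of Per3 had an unadjusted p under 0.05. The log2 fold change was -0.20 ± 0.17 (SE) in 5xFAD against WT and -0.27 ± 0.17 (SE) in Kcnip3 KO-5xFAD against Kcnip3 KO.

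Leaving out 5xFAD 1 gave the highest number of clock genes called. Without it, 4 were called lower in 5xFAD than in WT by the edgeR test, where 7.27% of all genes tested were called lower. They were Nr1d2 at -1.07 (adjusted p = 0.00493), Per2 at -0.79 (adjusted p = 0.0163), Per3 at -0.47 (adjusted p = 0.0365) and Tef at -0.29 (adjusted p = 0.0499). Over all genes 2117 were called without this library, against 562 with it. Thy1 and Trem2 in 5xFAD 1, at 2870 and 154 CPM, lay with those of the other 5xFAD libraries, so its label stood.

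Cry2, which encodes a cryptochrome that represses CLOCK and BMAL1, was the steadiest member. It read 161, 174 and 144 CPM in Kcnip3 KO-5xFAD, 163, 171 and 172 CPM in 5xFAD, 175, 169 and 166 CPM in Kcnip3 KO, and 171, 181 and 184 CPM in WT libraries. The highest library exceeded the lowest by a ratio of 1.27. Its log2 fold changes in the 4 pairwise comparisons ran from -0.09 to -0.07, and in 5xFAD against WT the 95% interval was -0.27 to 0.10.

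Ciart, which encodes CHRONO, a repressor of CLOCK and BMAL1, had the fewest counts of the 10 and the largest spread within genotypes. It read 26.5, 26.6 and 13.5 CPM in Kcnip3 KO-5xFAD, 23.6, 19 and 17.7 CPM in 5xFAD, 15.6, 22.8 and 15.1 CPM in Kcnip3 KO, and 18.5, 31.7 and 23.1 CPM in WT libraries. The groups overlapped in every comparison. The largest difference was in Kcnip3 KO against WT, at a log2 fold change of -0.46 ± 0.27 (SE; edgeR, unadjusted p = 0.11).

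**Figure D3:**
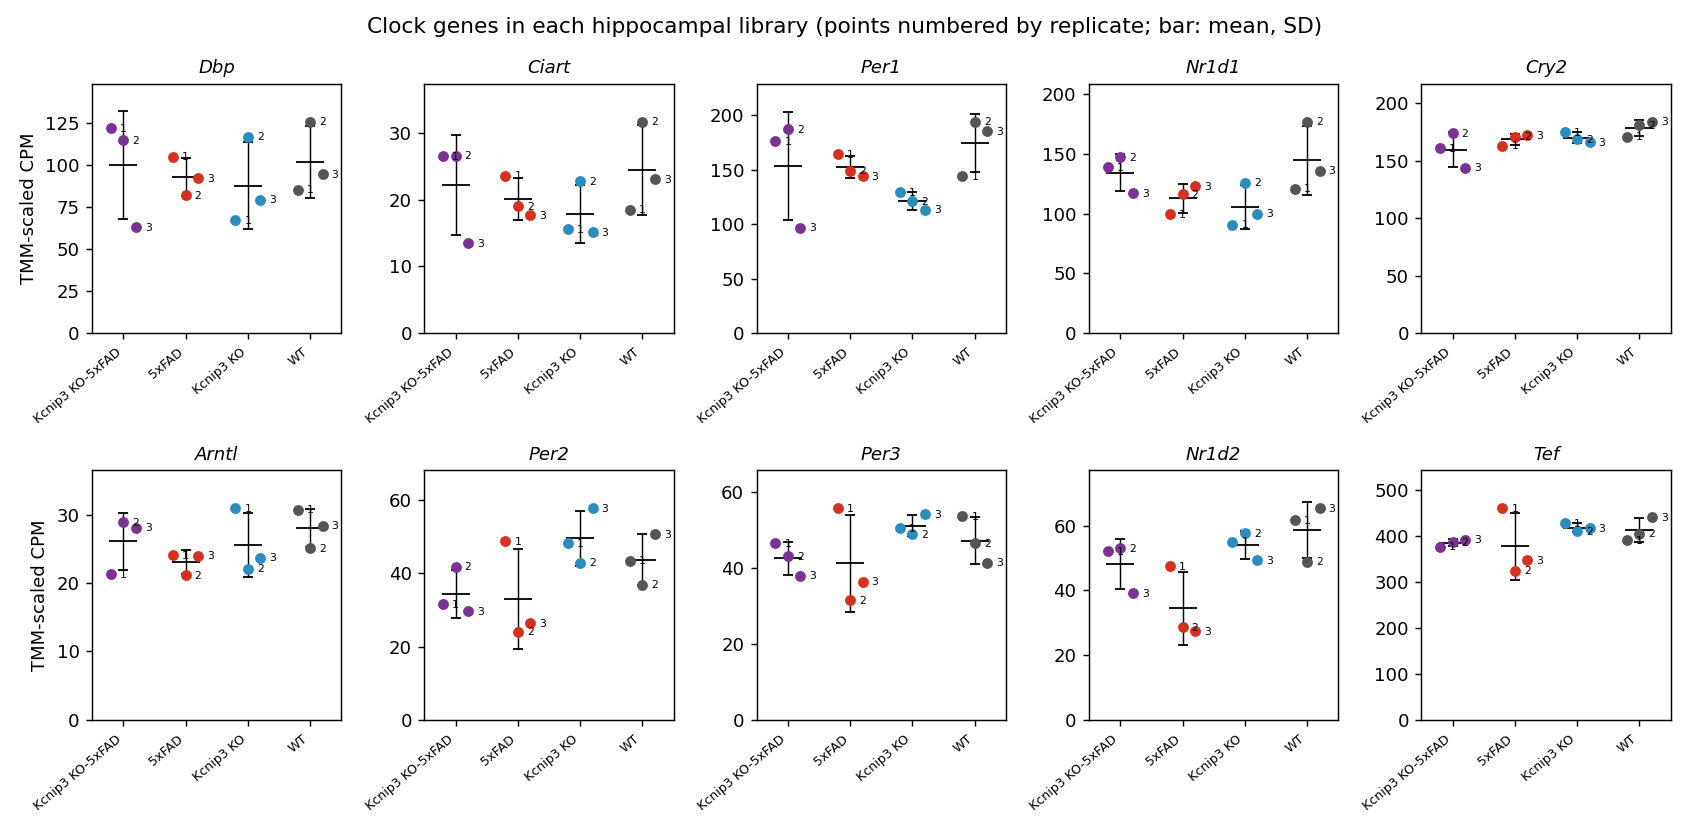
TMM-scaled CPM (y axis, from 0) of the 10 clock genes in each library, by genotype (x axis); points are libraries numbered by replicate, and bars are the mean and SD of 3 libraries. Nr1d2 in 5xFAD lies at 27.4 to 47.5 CPM, below WT at 48.9 to 65.4 CPM.

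Arntl, the activator gene, read 21.3, 28.9 and 28.1 CPM in Kcnip3 KO-5xFAD, 24.1, 21.1 and 24 CPM in 5xFAD, 30.9, 22.1 and 23.7 CPM in Kcnip3 KO, and 30.7, 25.1 and 28.4 CPM in WT libraries. The 3 5xFAD libraries lay just below the 3 WT libraries. The log2 fold change was -0.28 ± 0.15 (SE; edgeR, unadjusted p = 0.0869, adjusted p = 0.268). It was 0.03 in Kcnip3 KO-5xFAD against Kcnip3 KO, with a 95% interval from -0.30 to 0.35.

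Nr1d2 (ENSMUSG00000021775, chr14:18204054-18239127 on the minus strand of GRCm38) encodes REV-ERBβ, a nuclear receptor that represses Arntl. It read 52.2, 53 and 39.2 CPM in Kcnip3 KO-5xFAD, 47.5, 28.6 and 27.4 CPM in 5xFAD, 55.1, 57.7 and 49.3 CPM in Kcnip3 KO, and 61.8, 48.9 and 65.4 CPM in WT libraries. The 5xFAD libraries did not overlap the WT libraries, though 5xFAD 1 came close to WT 2. Its mean was 34.5 ± 11.3 CPM in 5xFAD and 58.7 ± 8.66 CPM in WT (SD, n = 3 each), a fitted ratio of 0.587. Its log2 fold change in Kcnip3 KO-5xFAD against 5xFAD was 0.48 ± 0.20 (SE; edgeR, unadjusted p = 0.0271, adjusted p = 0.451), and the interaction was 0.60 (adjusted p = 0.853). Without WT 3 and Kcnip3 KO-5xFAD 2 these were 0.41 (edgeR, adjusted p = 0.578) and 0.44 (adjusted p = 0.991).

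The call of Nr1d2 in 5xFAD against WT lay at the edge of the threshold. Once the 2 libraries that go against their labels for the transgenes were left out, the log2 fold change was -0.69 and the edgeR adjusted p was 0.19. With a correction for transcript length and GC content it was -0.53 with an adjusted p of 0.112, and the longest transcript of Nr1d2, at 41.8% GC, had the lowest GC content of the 10 members. With the replicate number as a block it was -0.80 (adjusted p = 0.0282), and by DESeq2 -0.77 (adjusted p = 0.00561). The edgeR call was also lost without any 1 library among WT 1, WT 3, 5xFAD 2, 5xFAD 3, the 3 Kcnip3 KO libraries, Kcnip3 KO-5xFAD 1 and Kcnip3 KO-5xFAD 3, with adjusted p from 0.0542 to 0.193, while the log2 fold change stayed between -0.77 and -0.63. Over all genes edgeR called 562 with every library, 13 without WT 3, and 1 without WT 1, 5xFAD 2 or 5xFAD 3. Without Kcnip3 KO 1, 2 or 3 it called 659, 446 or 424, and without Kcnip3 KO-5xFAD 1 or 3 it called 441 or 232. The fit without the 2 libraries called 209, the length and GC correction 97, the replicate block 1234 and DESeq2 1431.

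Summed cell type markers did not overlap between 5xFAD and WT for 4 cell types and overlapped for the other marker lists. The part of cell types in the Nr1d2 values was not tested. Summed over 4 markers each, microglial genes were at 730 to 937 CPM in 5xFAD against 220 to 386 CPM in WT, astrocyte genes at 4190 to 4730 against 2270 to 2930, oligodendrocyte genes at 4460 to 6120 against 2540 to 4260, and neuronal genes at 2560 to 2740 against 3320 to 3360. Relative to WT, 4 of 4 microglial, 3 of 4 astrocyte and 4 of 4 oligodendrocyte markers were higher in 5xFAD, 3 of 4 neuronal markers were lower by their means, and no marker was at 0. Hippocampal neuron markers, a separate list, summed to 324 to 359 CPM in 5xFAD against 257 to 352 CPM in WT. Of these, 3 of 4 had a log2 fold change above 0, with a median of 0.34. Single genes made up most of the difference in the neuronal, astrocyte and oligodendrocyte sums. Snap25, a synaptic vesicle fusion gene, averaged 887 CPM in 5xFAD and 1440 CPM in WT (edgeR, adjusted p = 0.0173, and 0.0573 to 0.096 without any 1 of WT 1, WT 3, 5xFAD 2 or 5xFAD 3, and 0.0948 with the length and GC correction), while Rbfox3, a neuronal nucleus gene, averaged 326 CPM in 5xFAD and 315 CPM in WT. Over all genes edgeR called 562, but 13 without WT 3, 1 without WT 1, 5xFAD 2 or 5xFAD 3, and 97 with the length and GC correction. Gfap, a gene of astrocyte filaments, averaged 2420 CPM in 5xFAD and 566 CPM in WT (adjusted p = 0.0745), while Slc1a2, a glutamate transporter gene, averaged 1840 CPM in 5xFAD and 1890 CPM in WT. Mbp, an oligodendrocyte marker, averaged 3960 CPM in 5xFAD and 2390 CPM in WT (edgeR, adjusted p = 0.115). In whole tissue, fewer cells of a type and less RNA per cell cannot be told apart. Choroid plexus markers summed to 6070, 220 and 8920 CPM in 5xFAD libraries 1 to 3, and their part was not tested either.

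Nr1d1 encodes REV-ERBα, the paralog of REV-ERBβ. It read 139, 147 and 117 CPM in Kcnip3 KO-5xFAD, 99.3, 116 and 123 CPM in 5xFAD, 90.7, 126 and 100 CPM in Kcnip3 KO, and 121, 177 and 136 CPM in WT libraries. Means were 134 ± 15.6 CPM in Kcnip3 KO-5xFAD, 113 ± 12.4 CPM in 5xFAD, 106 ± 18.3 CPM in Kcnip3 KO and 145 ± 28.8 CPM in WT (SD, n = 3 each), so each single change went with a lower mean than WT and the combined genotype lay nearest to WT. The log2 fold change was -0.46 ± 0.15 (SE) in Kcnip3 KO against WT (edgeR, unadjusted p = 0.0102, adjusted p = 0.999) and -0.36 ± 0.15 (SE) in 5xFAD against WT (unadjusted p = 0.0364, adjusted p = 0.169). In Kcnip3 KO-5xFAD against Kcnip3 KO it was 0.35 ± 0.15 (SE; unadjusted p = 0.0413, adjusted p = 0.464). The interaction was 0.70 ± 0.22 (SE; unadjusted p = 0.0061), rank 86 of 15905 genes by p, with an adjusted p of 0.853. With the 2 libraries that go against their labels for the transgenes left out it was 0.67 (adjusted p = 0.991). Without Kcnip3 KO 3 it was 0.66 (adjusted p = 0.969), and Nr1d1 in Kcnip3 KO against WT was then at -0.42. Exons of Nr1d1 overlap those of Thra on the opposite strand over 263 bases, 8.5% of its exonic length, and reads there cannot be assigned without strand.

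Dbp and Tef encode PAR bZIP factors that carry the rhythm to output genes. Dbp read 122, 115 and 63 CPM in Kcnip3 KO-5xFAD, 105, 82.2 and 92.4 CPM in 5xFAD, 67.3, 117 and 79.5 CPM in Kcnip3 KO, and 85.4, 126 and 94.5 CPM in WT libraries. Every group overlapped every other. The 95% interval of its log2 fold change in 5xFAD against WT ran from -0.70 to 0.44, with the estimate at -0.13. Exons of Dbp overlap those of Sphk2 on the other strand over 18% of their length. Smaller overlaps were found for Cry2 (4.7%), Tef (2.5%) and Arntl (0.4%).

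Tef, the most abundant member, read 376, 386 and 391 CPM in Kcnip3 KO-5xFAD, 459, 324 and 347 CPM in 5xFAD, 427, 409 and 416 CPM in Kcnip3 KO, and 390, 404 and 440 CPM in WT libraries. The 5xFAD group again held the highest and the lowest library. All 3 Kcnip3 KO-5xFAD libraries lay below all 3 Kcnip3 KO libraries, by a log2 fold change of -0.12 ± 0.12 (SE; edgeR, unadjusted p = 0.323).

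Clock genes outside the 10 were counted from a list of 22, all of which were tested. In 5xFAD against WT, 1 of the 22 was called, Rorb, which encodes a ROR-family receptor that activates through the sites REV-ERB proteins occupy. Rorb read 13.8, 9.08 and 9.33 CPM in 5xFAD, against 19.6, 18.5 and 19.9 CPM in WT libraries, with no overlap and a log2 fold change of -0.85 ± 0.17 (SE; edgeR, adjusted p = 0.0284). Without the 2 libraries that go against their labels for the transgenes it was -0.83 (adjusted p = 0.0689), and with the length and GC correction it was -0.50 (adjusted p = 0.103). Without any 1 of WT 1, WT 3, 5xFAD 2 or 5xFAD 3 the adjusted p of Rorb was 0.0951 to 0.138. Over all genes the fit without the 2 libraries called 209 and the length and GC correction 97, against 562 in the main edgeR fit. Calls numbered 13 without WT 3, and 1 without WT 1, 5xFAD 2 or 5xFAD 3. The median of the 22 was -0.21, against 0.014 for all genes tested, with 17 of 22 below 0. An unadjusted p under 0.05 by edgeR was found for 7 that were lower and 1 that was higher, against 25.3% of all genes tested. Clock, the partner of Arntl, was at -0.49 ± 0.18 (SE, adjusted p = 0.115) and Gsk3b, a kinase of clock proteins, at -0.37 ± 0.11 (SE, adjusted p = 0.0654).

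In the other comparisons none of the 22 was called by edgeR, DESeq2 or limma-voom. Between 1 and 4 had an unadjusted p under 0.05 by edgeR, against 4.51% to 10.4% of all genes tested. Cry1, the other cryptochrome gene, read 11.6, 11.2 and 10.7 CPM in Kcnip3 KO-5xFAD, against 15.5, 15.5 and 22.8 CPM in Kcnip3 KO libraries. Its log2 fold change was -0.68 ± 0.18 (SE; edgeR, unadjusted p = 0.00175, adjusted p = 0.251), and 19 of the 22 genes lay below 0 in that comparison with a median of -0.11. The library Kcnip3 KO 3, highest in Cry1, is also the one with 125 CPM of Kcnip3, and without it Cry1 was at -0.47 (adjusted p = 0.502). Rorb in Kcnip3 KO-5xFAD against 5xFAD was at 0.53 ± 0.17 (SE, adjusted p = 0.426) and Clock at 0.52 ± 0.18 (SE, adjusted p = 0.433).

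Libraries of the same genotype differed in 9 of the 10 clock genes more than in most genes of like level. The SD of log2 CPM within genotypes was 0.375 for Dbp, larger than that of 97.6% of the 3593 genes within 2-fold of its level, whose median was 0.138. For Per1 it was 0.294, larger than 95.4% of such genes, for Per2 0.343 (94.8%), for Ciart 0.393 (93.7%) and for Nr1d2 0.281 (91.3%). Nr1d1 at 0.22 (86.6%) and Per3 at 0.247 (86.2%) followed. Arntl at 0.198 (62.4%), Tef at 0.142 (53.5%) and Cry2 at 0.0783 (11.3%) stood lower in that order.

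Single libraries stood out for sets of clock genes. The library Kcnip3 KO-5xFAD 3 was the lowest of all 12 for Per1, Cry2, Dbp and Ciart, with deviations of -0.60, -0.14, -0.61 and -0.65 log2 units from its genotype mean. Its choroid plexus markers summed to 4380 CPM, against 360 and 400 CPM in Kcnip3 KO-5xFAD 1 and 2, 2980 to 4510 CPM in Kcnip3 KO libraries and 3850 CPM in WT 2, and the part of that tissue was not tested. WT 2 was the highest for Per1, Nr1d1, Dbp and Ciart. The library 5xFAD 2 was the lowest for Per2, Per3, Arntl and Tef, and it also had the fewest genes with any count, 21673. The map of deviations shows these libraries.

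**Figure D4:**
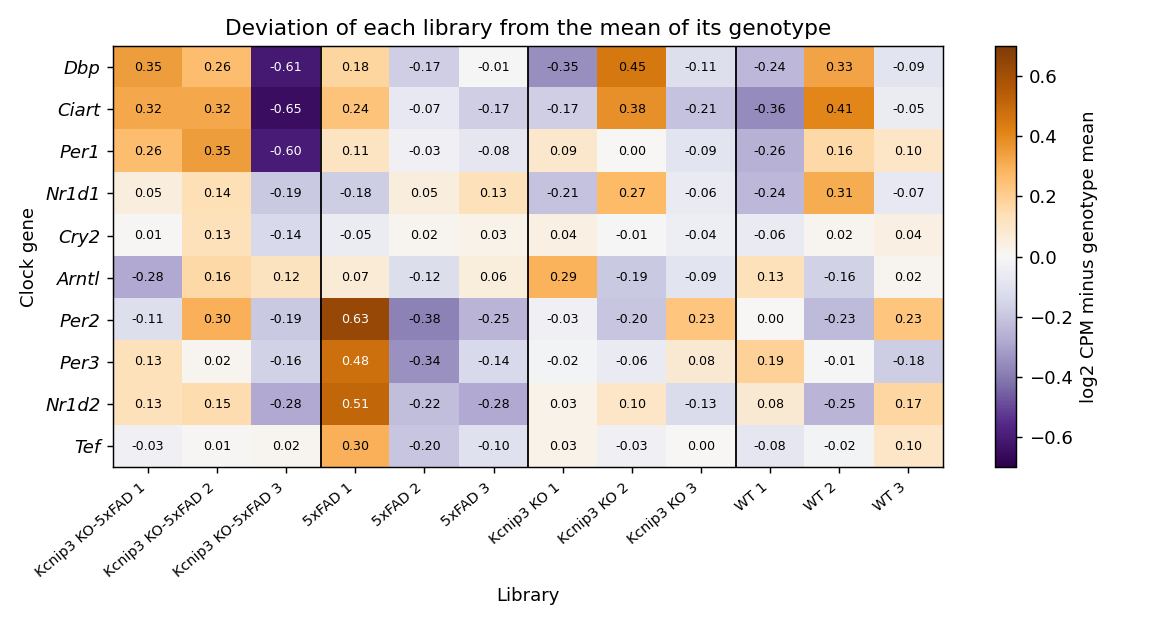
Log2 CPM of each clock gene (rows) in each library (columns, grouped by genotype) minus the mean of its genotype. Dark cells mark Kcnip3 KO-5xFAD 3 for Dbp, Ciart and Per1 (-0.61, -0.65 and -0.60) and 5xFAD 1 for Per2, Per3 and Nr1d2 (0.63, 0.48 and 0.51).

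As a description, members with high correlations across the 12 libraries were grouped into 2 patterns. Of 45 pairs of members, 37 had a positive and 8 a negative Pearson's r of log2 CPM, and 10 pairs had a permutation p under 0.05 after Benjamini-Hochberg adjustment over the 45 (two-sided, 100000 resamples). By Spearman's rho 3 pairs passed. The resamples shuffled libraries across the genotypes, and the share of pairs of other genes that would pass was not tested. Members were picked with earlier results of these data known, so these p-values describe the libraries at hand.

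Dbp, Ciart, Per1 and Nr1d1 were grouped as the first pattern. The grouping came from these same values, so the 4 of 6 pairs that passed are no separate support for it. Dbp and Ciart had r = 0.94 (permutation p = 2e-05, adjusted p = 0.0009) and rho = 0.91 (adjusted p = 0.0018, permutation) over 12 libraries, and r = 0.95 on deviations from the genotype means. Without Kcnip3 KO 1 and Kcnip3 KO-5xFAD 3, the 2 libraries farthest from the median of Dbp, r was 0.91. Per1 and Ciart had r = 0.86 (permutation p = 0.00039, adjusted p = 0.00585) and rho = 0.91 (adjusted p = 0.0018, permutation), with 0.85 on deviations and 0.76 without WT 2 and Kcnip3 KO-5xFAD 3. Nr1d1 with Ciart, at r = 0.74 (permutation p = 0.00548, adjusted p = 0.0352), had rho = 0.70 (adjusted p = 0.0885, permutation), and r = 0.56 (permutation p = 0.0954) without its 2 farthest libraries. Per1 with Dbp, at r = 0.72 (permutation p = 0.00851, adjusted p = 0.0417), had rho = 0.71 (adjusted p = 0.086, permutation), and r = 0.50 (permutation p = 0.146) without its 2 farthest libraries. Nr1d1 with Dbp, at r = 0.69 (adjusted p = 0.0529, permutation), and Per1 with Nr1d1, at r = 0.62 (adjusted p = 0.113, permutation), did not pass. The pairs Nr1d1 with Ciart and Per1 with Dbp rest in part on WT 2, Kcnip3 KO 1 and Kcnip3 KO-5xFAD 3.

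Per2, Per3, Nr1d2 and Tef were grouped as the second pattern in the same way. Per2 and Tef had r = 0.86 (permutation p = 0.00022, adjusted p = 0.00495) and rho = 0.85 (adjusted p = 0.0126, permutation), with 0.83 on deviations and 0.69 (permutation p = 0.0285) without 5xFAD 2 and 5xFAD 3. Per2 and Per3 had r = 0.81 (permutation p = 0.00166, adjusted p = 0.0183) and rho = 0.76 (adjusted p = 0.0502, permutation), and r = 0.58 (permutation p = 0.077) without the same libraries. Per2 with Nr1d2 had r = 0.79 and rho = 0.63, Per3 with Tef r = 0.75 and rho = 0.66, Nr1d2 with Tef r = 0.74 and rho = 0.43, and Per3 with Nr1d2 r = 0.72 and rho = 0.39. Their adjusted permutation p-values for r were 0.0183, 0.0352, 0.0417 and 0.0417, and those for rho were 0.147, 0.135, 0.512 and 0.592. Without 5xFAD 2 and 5xFAD 3 these 4 pairs had r = 0.48, 0.35, 0.14 and 0.22, so the relation between them rests on those libraries. Without the 2 libraries that go against their labels for the transgenes, r was 0.94 for Dbp with Ciart, 0.86 for Per1 with Ciart, 0.86 for Per2 with Tef and 0.93 for Per2 with Per3.

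Between the patterns r was near 0 for several pairs. Per1 and Per2 had r = 0.02, Dbp and Tef 0.06, and Ciart and Per2 0.04. Arntl, which peaks opposite to Dbp and Nr1d1 in rhythmic tissue, had r = -0.42 with Dbp (adjusted p = 0.475, permutation) and rho = -0.26 (adjusted p = 0.783, permutation), with -0.60 on deviations. Arntl and Nr1d1 had r = -0.10 over all libraries and -0.61 on deviations from the genotype means, given as a description. Without WT 1 and Kcnip3 KO 1, the 2 libraries farthest from the median of Arntl, its r was -0.22 with Dbp and 0.24 with Nr1d1. On log2 TPM, r of Arntl was -0.15 with Dbp and 0.13 with Nr1d1. The heat map of correlations holds all 45 values.

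**Figure D5:**
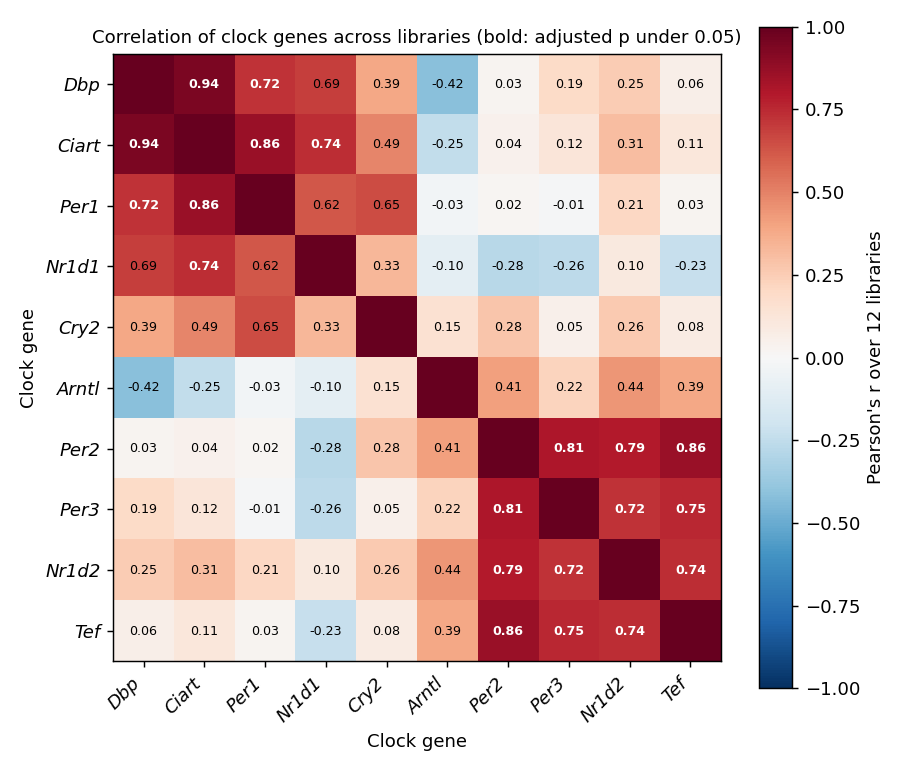
Pearson's r of log2 CPM between each pair of clock genes (rows and columns) over 12 libraries, with bold type for an adjusted permutation p under 0.05. The upper left block holds Dbp, Ciart, Per1 and Nr1d1 (0.62 to 0.94) and the lower right block Per2, Per3, Nr1d2 and Tef (0.72 to 0.86).

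The genes most like 3 members were taken by Pearson's r over the 12 libraries among 12039 genes of at least 5 CPM on average outside the 10 members, as a description. For Dbp they were Prrt4, Rassf1, Dedd, Rfesd and Xrcc3, at r = 0.77 to 0.79, all below the 0.94 of Ciart. They lay above the 0.72 of Per1 and the 0.69 of Nr1d1 with Dbp. For Per1 they included Gm49797, Gatc, 2810001G20Rik and Pnrc1, at 0.84 to 0.86. Among the members, Ciart had 0.86 with Per1, Dbp 0.72 and Nr1d1 0.62. For Arntl they were Usf3, Rasal2, Zfp638, Arhgap20 and Smarca2, at 0.86 to 0.90, above the 0.44 that Arntl reached with Nr1d2, its highest value among the members.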

How the data were processed

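Per the labels' protocols, messenger RNA of hippocampus from 4 genotypes was made into 12 libraries by the TruSeq mRNA kit. The notes on processing from the submitters give mm10 as the genome, list HISAT2 2.1.0 and featureCounts, and also name edgeR 3.38.4, R 4.2.1 and FastQC 0.11.9. Strand setting, annotation release and the gene lengths used for TPM are not given in the sources here. Without strand, reads of a gene and its antisense partner cannot be told apart.

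The deposited count table, made by the authors, holds whole-number raw counts for 55385 Ensembl genes. The table of log2 TPM deposited by the authors covers 16120 genes, and it served for levels between genes and as an alternative. Symbols came from GENCODE M21 on GRCm38, the assembly of mm10, and 55144 genes had one. The counts per library, 7664407 to 11310714, set the precision, and statements on it cover counting error only.

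All libraries were fitted in edgeR 4.0.16 (R 4.3.3) by robust quasi-likelihood tests after TMM scaling, each genotype having its own coefficient, and filterByExpr kept 15905 genes. p-values were adjusted by Benjamini-Hochberg over all genes tested, and a gene was called at an adjusted p under 0.05. CPM values are TMM-scaled. The common biological coefficient of variation was 14.4%. Correlations used log2 CPM with a prior count of 1 and were computed with numpy 2.4.6. The fit was tested on simulated data before use. Alternatives were other scalings and filters, DESeq2 1.42.0, limma 3.58.1 (voom, and on log2 TPM), a replicate block, a length and GC correction, and libraries left out.

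The 10 clock genes, each named with its values, the 22 further clock genes (the 4 of smallest p per comparison to be named), the activity and glucocorticoid lists and the markers were chosen with earlier results of these data known. A few genes that these rules would name are not reported here.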

Additional observations from a re-analysis of the deposited data

Results flagged for a closer look

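Nr1d1 differed between backgrounds in the direction of its values. Every Kcnip3 KO library (90.7 to 126 CPM) lay below the WT mean of 145 CPM, and every Kcnip3 KO-5xFAD library (117 to 147 CPM) lay above the 5xFAD mean of 113 CPM. The same held for the transgenes, since every Kcnip3 KO-5xFAD library lay above the Kcnip3 KO mean of 106 CPM and every 5xFAD library (99.3 to 123 CPM) below the WT mean. The test of the difference itself, the interaction of the edgeR fit, gave a log2 value of 0.70 with an adjusted p of 0.853. Nr1d2 showed the same for Kcnip3 loss, with every Kcnip3 KO-5xFAD library (39.2 to 53 CPM) above the 5xFAD mean of 34.5 CPM and every Kcnip3 KO library (49.3 to 57.7 CPM) below the WT mean of 58.7 CPM. Its interaction was 0.60, also with an adjusted p of 0.853. Without WT 3 and Kcnip3 KO-5xFAD 2 the interaction was 0.67 for Nr1d1 and 0.44 for Nr1d2 (edgeR, adjusted p = 0.991 for both). Neither passed the test over all genes, except that Nr1d1 had an adjusted p of 0.00969 with no filter on low counts, a fit that called 272 of 31787 genes in the interaction, against 0 with the filter. The SE of Nr1d1 was 0.17 in that fit, against 0.22 with the filter.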

How the results depend on the processing

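Nr1d2 was the 1 clock gene called in 5xFAD against WT, and that count became 0 under scaling by library size only, limma on log2 TPM, the length and GC correction, that correction with the replicate block, a fit of only the groups compared, and without WT 3 and Kcnip3 KO-5xFAD 2, with or without Kcnip3 KO 3 left out as well. Over all genes these fits called, in that order, 467, 238, 97, 114 and 383 genes, against 562 in the main edgeR fit. Without WT 3 and Kcnip3 KO-5xFAD 2 it was 209, of which 13 were lower, and 216 with Kcnip3 KO 3 left out too. Leaving out each library in turn gave counts of clock genes from 0 to 4, and calls over all genes from 1 to 2117. Without any filter on low counts the counts became 2 in Kcnip3 KO against WT, 1 in Kcnip3 KO-5xFAD against 5xFAD, 1 in Kcnip3 KO-5xFAD against Kcnip3 KO and 1 in the interaction, where 31787 genes were fitted in place of 15905 and calls over all genes were 324, 351, 721 and 272, against 8, 11, 0 and 0 with the filter. In 5xFAD against WT the SE of the 10 members ran from 0.12 to 0.16 with no filter, against 0.09 to 0.26 with it. The cause of the added calls was not tested. The limma fit on log2 TPM moved the median of all genes in 5xFAD against WT to -0.131, so its fold changes are relative to that. Correlated pairs numbered 6 without WT 3 and Kcnip3 KO-5xFAD 2, all among the 10.

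The replicate block left 1 clock gene called in 5xFAD against WT, while calls over all genes went to 1234 with the block, against 562 without it. Correlations of deviations between same-numbered libraries ran from -0.31 to 0.24, and within no pair of genotypes did every correlation exceed 0.1. For replicate 2 it was 0.24 between Kcnip3 KO-5xFAD and 5xFAD, 0.20 between Kcnip3 KO-5xFAD and WT, and 0.14 between 5xFAD and WT. Replicate 3 of 5xFAD and WT gave the -0.31. Whether same-numbered libraries share more than a number was not tested.

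Of 1480 alternative values of the 60 member fold changes, 1376 kept their direction and side of the threshold. The other direction was found in 80, for 18 fold changes that were at most 0.15 in size and uncalled. Without WT 3 and Kcnip3 KO-5xFAD 2, Kcnip3 KO-5xFAD against 5xFAD gave Per1 -0.16, Per2 -0.11, Dbp -0.01 and Ciart -0.00, against Kcnip3 KO it gave Arntl -0.06, averaged Kcnip3 loss gave Arntl -0.01, and the interaction gave Per3 0.01 and Tef -0.04. With Kcnip3 KO 3 left out too, Kcnip3 KO against WT gave Per3 -0.01 and Nr1d2 0.03, Kcnip3 KO-5xFAD against 5xFAD gave Per1 -0.16, Per2 -0.11, Dbp -0.01 and Ciart -0.00, against Kcnip3 KO it gave Arntl -0.11, and the interaction gave Per3 0.05 and Tef -0.05. The length and GC correction gave Tef -0.02 in Kcnip3 KO against WT, Arntl -0.02 and Dbp 0.05 for averaged Kcnip3 loss, and Cry2 0.09 in the interaction. With the replicate block added to that correction they were Tef -0.03, Arntl -0.02, Dbp 0.03 and Cry2 0.09. In Kcnip3 KO-5xFAD against 5xFAD, Per1 was -0.00 with no filter, -0.04 by limma-voom and -0.01 with the replicate block. In the interaction, Tef was -0.01 with no filter and Cry2 0.06 under library size only, and log2 TPM gave Per2 0.01, Per3 0.04 and Cry2 0.07, with Arntl at -0.03 in Kcnip3 KO-5xFAD against Kcnip3 KO.

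Leaving out each library in turn moved Dbp between -0.24 and 0.04 in 5xFAD against WT, and Tef between -0.02 and 0.07 in Kcnip3 KO against WT. In Kcnip3 KO-5xFAD against 5xFAD it moved Per1 between -0.16 and 0.25, Per2 between -0.12 and 0.44, Per3 between -0.11 and 0.32, Dbp between -0.07 and 0.34, Tef between -0.07 and 0.20, and Ciart between -0.01 and 0.40. Arntl ran from -0.07 to 0.19 in Kcnip3 KO-5xFAD against Kcnip3 KO. For averaged Kcnip3 loss, Arntl ran from -0.06 to 0.08, Dbp from -0.19 to 0.06 and Tef from -0.03 to 0.11. In the interaction, Per2 ran from -0.29 to 0.26, Per3 from -0.22 to 0.20, Cry2 from -0.08 to 0.06 and Tef from -0.08 to 0.18. Counting error limits Ciart most, with a coefficient of variation of up to 9.53%.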
